A study of Rattus norvegicus with 18 samples.

Results

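The expression of interferon-inducible genes was examined in primary hepatocytes, the cells that make up most of the liver, from rats, held in culture for 24 or 72 h with EMD or with its vehicle. The list holds 35 genes that interferons are known to induce, and a gene was read through the probe set annotated with its symbol alone, the brightest over all arrays where there were several. Of the 35 genes, 32 were measured in this way, out of 14217 genes with such a probe set, and Ddx58, Samd9l and Xaf1 were not analysed here. Membership rests on the gene names, but the list was chosen with earlier results of these data known. Measured values also entered the choice among several probe sets of a gene. EMD is a compound known by a code name, which per the study activates both PPARα and PPARγ, nuclear receptors of lipid metabolism. All cells came from Wistar rats, were left for a day to attach and were then kept in a medium with insulin and hydrocortisone. Cultures received 30 µM EMD, 100 µM EMD or 0.1% DMSO as vehicle for 24 or 72 h, which gave 6 groups of 3 arrays and 18 arrays in all. The labels give each group the replicate numbers 1, 2 and 3 and call those of EMD biological, and the study's methods call all of them biological replicates. The methods also say that hepatocytes of each animal received the treatments, but no source used here ties a number to an animal.

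Interferons are cytokines that a cell releases when it senses viral nucleic acid, or that immune cells release in inflammation. Type I interferons bind a receptor on most cells, including hepatocytes, and lead to a complex, with STAT2 and IRF9 among its subunits, that binds a promoter element called the interferon-stimulated response element (ISRE). Type II interferon acts mainly through another element, the gamma-activated sequence (GAS). The induced genes encode further sensors and transcription factors, the ubiquitin-like protein ISG15 and its enzymes, proteins that block viral replication, and the transporter that loads peptides for antigen presentation. In the liver these genes are known from viral hepatitis and its treatment with interferon.

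Levels are log2 expression estimates, so that a difference of 1 is a 2-fold difference, and levels of different genes were not compared because each probe set has its own brightness. Values on the 18 arrays ran from 2.39 to 14.8, array medians from 5.04 to 5.11, and arrays of a group correlated at 0.988 to 0.996 across probe sets. The number of arrays limits the precision, and the median standard error (SE) of a change between 2 groups over all probe sets was 0.116. A member is said to have risen or fallen where limma's moderated test gave an adjusted p under 0.05 over all 31042 probe sets. All 8 hepatocyte markers measured lay above the array medians in each group, with group means of 12 to 12.7, and 10 of 11 dendritic and lymphoid markers lay under them. Of 13 macrophage markers measured, 6 to 9 lay under the array medians, depending on the group, while Cd68, Cd14, Lyz2 and C1qb lay above in each group. Of the members, Mx1, Oas1b, Ifit1 and Ifit3 lay under the array median on all 18 arrays, and the estimates carry no detection call. Gbp2 lay under it on 17 arrays, Herc6 on 10, Oasl on 9, Oas1a and Ifi44l on 8, Mx2 on 6, Rsad2 on 3 and Tap2 on 1.

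The promoter sequence of a gene shows whether it holds the letters of an ISRE. A RefSeq promoter window of 250 bases before and 50 bases after the annotated start (build GRCr8) could be matched to 25 of the 32 members. The ISRE core was searched as GAAANNGAAA or, on the other strand, TTTCNNTTTC, and it stood in 16 of the 25 windows (64%) against 3.92% of all 33469 windows. The GAS core, TTCNNNGAA, reads the same on both strands and stood in 7 of the 25 (28%) against 8.87% of all windows. A match is a run of letters and does not show binding. The stretches below, in capitals where the ISRE core lies and read 5′ to 3′ on the gene's strand, belong to members described closely below, with Oas1b beside its copy Oas1a, and each lies before the annotated start.
Irf7, chr1:205800068-205800107, minus strand: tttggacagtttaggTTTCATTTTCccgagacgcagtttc
Oas1a, chr12:41330410-41330455, plus strand: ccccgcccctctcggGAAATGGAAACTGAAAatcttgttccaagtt
Oas1b, chr12:41395881-41395926, minus strand: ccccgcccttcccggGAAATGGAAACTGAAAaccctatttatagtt
Rsad2, chr6:48788243-48788282, minus strand: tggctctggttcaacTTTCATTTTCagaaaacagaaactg
Isg20, chr1:142239952-142239991, plus strand: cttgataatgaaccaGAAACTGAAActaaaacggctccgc
Tap1, chr20:4668640-4668679, minus strand: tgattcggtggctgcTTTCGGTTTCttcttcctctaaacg
Tap2, chr20:4652313-4652352, minus strand: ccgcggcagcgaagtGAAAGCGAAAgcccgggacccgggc
Ifi44l, chr2:243328649-243328688, plus strand: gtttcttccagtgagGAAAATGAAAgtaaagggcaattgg
Ifi27, chr6:128355213-128355252, plus strand: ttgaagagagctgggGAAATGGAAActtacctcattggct
Parp14, chr11:78408043-78408082, plus strand: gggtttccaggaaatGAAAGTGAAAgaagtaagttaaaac
In Oas1a and Oas1b, neighbouring copies of the oligoadenylate synthetase gene, 2 overlapping cores form the capitals and most letters around them are shared. The windows of Ifi44l and Ifi27 hold 2 separate cores each, of which 1 is shown. The other begins at base -91 from the annotated start in Ifi44l and at -169 in Ifi27. The core of Irf7, Rsad2 and Tap1 stands on the other strand. Windows of Isg15, Usp18 and Mx2, which had the largest changes with time, were not in the table used here.

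The 16 genes whose levels are described most closely below are shown array by array. Of these, 12 were taken by the smallest adjusted p over the tests, and Mx2, Isg20, Rsad2 and Rtp4 were added after their values were seen.

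**Figure D1:**
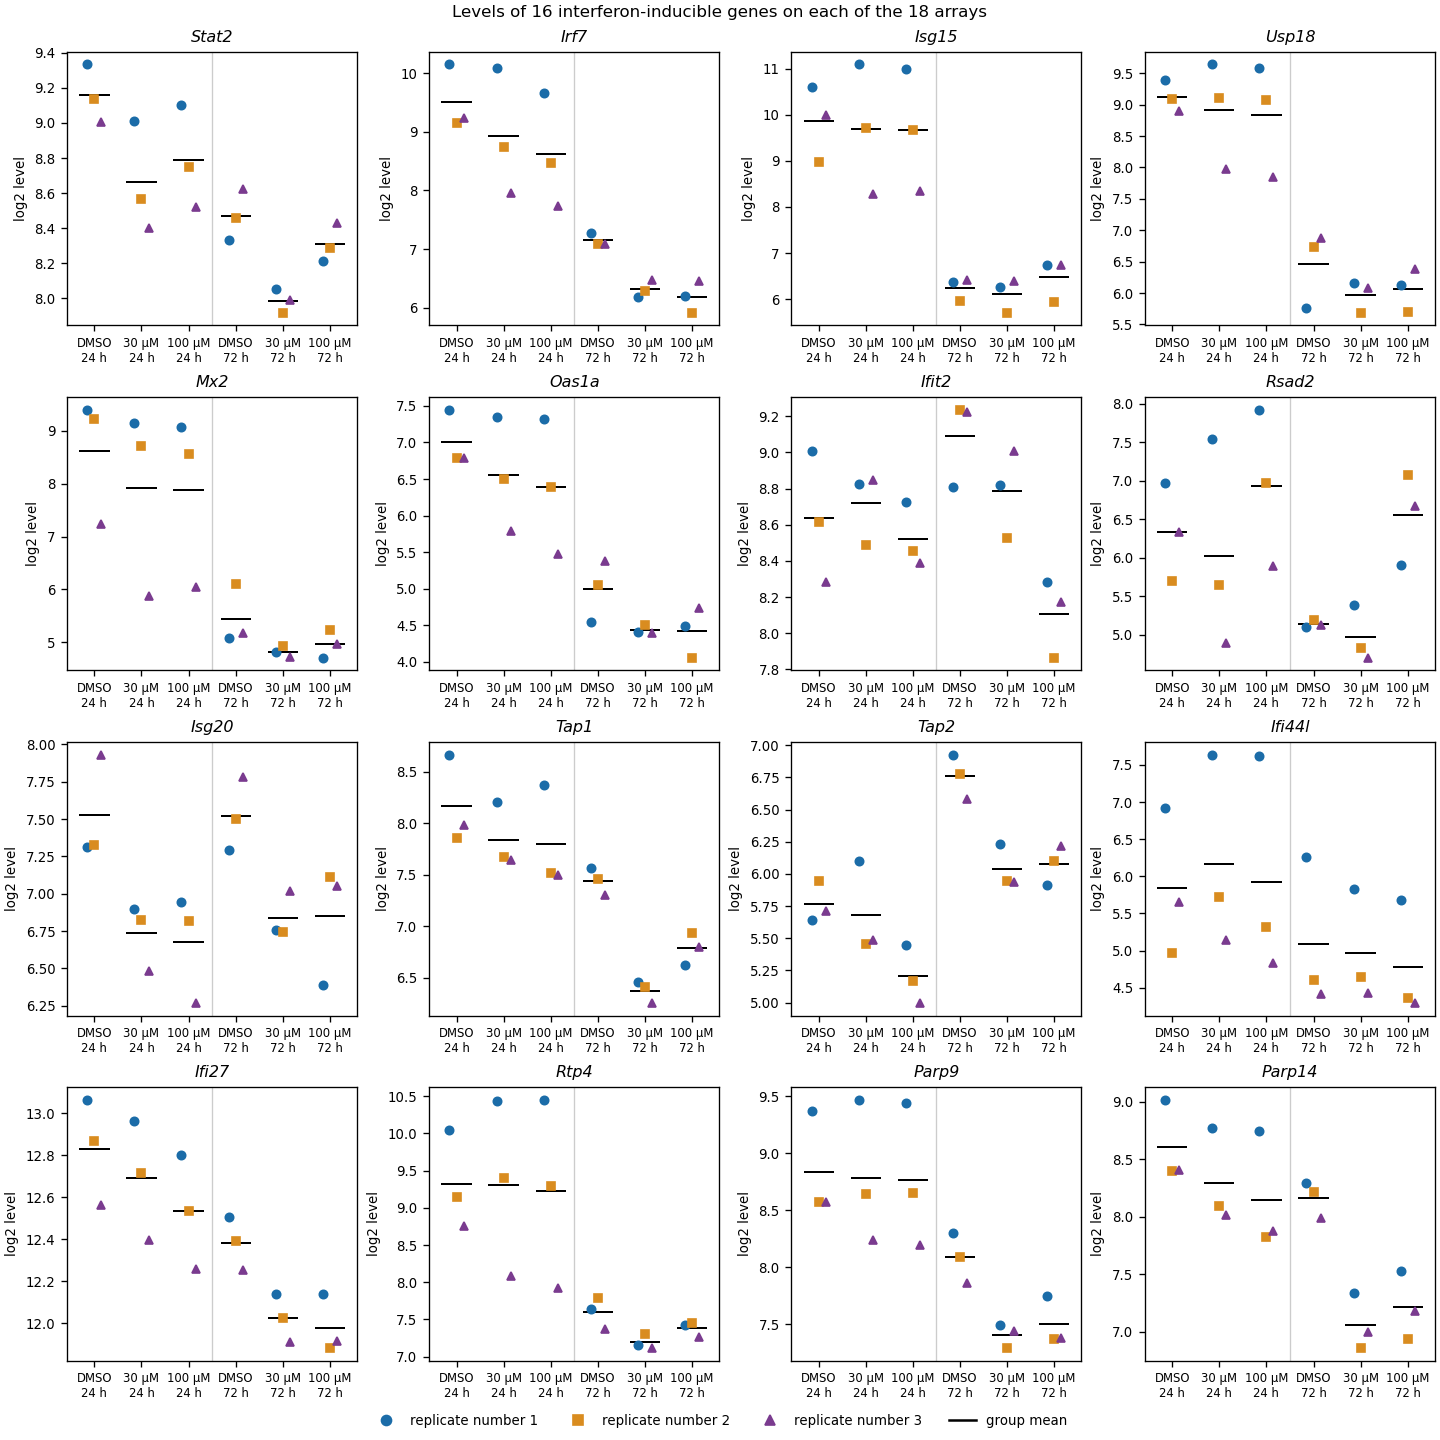
Log2 level (y axis) of 16 members on the 18 arrays in the 6 groups of dose and time (x axis); symbols give the replicate number and black bars the group mean of 3 arrays. For Isg15 all 9 arrays at 24 h lay at 8.29 or above and all 9 at 72 h at 6.75 or below, and at 24 h number 1 was the highest in each group for most of the genes shown.

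Between 24 and 72 h in vehicle alone, 10 of the 32 members fell and 1 rose. Over all probe sets 10.7% were lower and 11.0% were higher at 72 h. The median change of the members was -0.66, that of all probe sets -0.05, and 26 of the 32 members had a negative change. At an unadjusted p under 0.05 there were 20 members. With the replicate number as a block, an alternative since no source ties a number to an animal, 21 members passed.

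The ISG15 system held the largest fall. Isg15, the ubiquitin-like modifier, measured 10.61, 8.98 and 9.99 in the DMSO arrays 1 to 3 at 24 h, and after 72 h 6.38, 5.95 and 6.42. The groups did not overlap, and the change was -3.61 ± 0.63 (SE, 3 arrays per group; limma adjusted p = 0.00077), or 12.2-fold on the scale of these estimates. Usp18, the protease that removes ISG15 and restrains the type I receptor, measured 9.39, 9.09 and 8.89 at 24 h, and after 72 h 5.76, 6.74 and 6.88. All 3 arrays at 72 h were lower, with a change of -2.66 ± 0.42 (adjusted p = 0.00035). Herc6, a ligase of the same system in rodents, changed by -0.75 ± 0.45 and did not pass (adjusted p = 0.26).

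Among transcription factors 3 of 4 fell. Irf7, which amplifies the interferon response, measured 10.15, 9.15 and 9.24 in DMSO at 24 h, and after 72 h 7.28, 7.09 and 7.08. Its arrays at 72 h lay close together and well below the others, with a change of -2.37 ± 0.46 (adjusted p = 0.0017). Stat2, a subunit of the complex that binds the ISRE, measured 9.33, 9.14 and 9.0 at 24 h, and after 72 h 8.33, 8.46 and 8.62, a change of -0.69 ± 0.15 (adjusted p = 0.0048). A dimmer probe set of Stat2 changed by -0.26 and did not pass. Irf9, the subunit that contacts DNA, changed by -0.83 ± 0.22 (adjusted p = 0.013), and its other probe set by -0.93, which passed. Without DMSO replicate 2 at 72 h the adjusted p of Irf9 was 0.050, just over the threshold. Irf1, the factor that type II interferon induces most directly, changed by 0.21 ± 0.19 (adjusted p = 0.47).

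Of 14 antiviral effectors 3 fell. Mx2, a GTPase that blocks viral replication, measured 9.40, 9.23 and 7.23 at 24 h, and after 72 h 5.07, 6.10 and 5.18. The third array at 24 h lay far below the other two but above all arrays at 72 h, and the change was -3.17 ± 0.79 (adjusted p = 0.0092), with -2.64 in a further probe set that also passed. Oas1a, which makes the 2-5A messenger that activates RNase L, measured 7.45, 6.78 and 6.79 at 24 h, and after 72 h 4.55, 5.04 and 5.38. The groups were apart, with a change of -2.02 ± 0.40 (adjusted p = 0.0020). Probes of Oas1a and Oas1b may share targets because the genes are related copies, and those of Mx1 and Mx2 may too, which was not tested. Oasl, a relative without synthetase activity, changed by -1.06 ± 0.31 (adjusted p = 0.023), and its call was lost without DMSO replicate 1 at 24 h or DMSO replicate 1 or 2 at 72 h (adjusted p up to 0.10).

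The other 11 effectors did not pass in the fit of the 6 groups, but Oas1b, Ifit1, Ifit2, Eif2ak2, Bst2 and Gbp2 each passed on leaving out at least 1 of the single arrays. All of these but Ifit2 also passed with the replicate number as a block. Rsad2 (viperin), which makes a chain-terminating nucleotide, changed by -1.19 ± 0.56 (adjusted p = 0.14). The RNA-binding proteins Ifit1 and Ifit3 changed by -0.75 and -0.51, the kinase Eif2ak2 (PKR), which stops translation, by -0.64, and the dim Oas1b by -0.63. Bst2 (tetherin), which holds virions at the membrane, changed by 0.56, the GTPase Gbp2 by 0.64 and Ifit2 by 0.45. Changes were small in Mx1 at -0.10, Cmpk2, a mitochondrial nucleotide kinase, at -0.12, and the exonuclease Isg20 at under 0.01 in size. In the sensors of double-stranded RNA they were -0.09 in Ifih1 (MDA5) and -0.20 in Dhx58 (LGP2), while the 2 dimmer probe sets of Dhx58 changed by -0.63 and -0.23, and 1 of them passed.

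The 2 subunits of the peptide transporter of antigen presentation went opposite ways. Tap2 measured 5.64, 5.95 and 5.71 in DMSO at 24 h, and after 72 h 6.93, 6.78 and 6.58. It was the only member that rose, with a change of 1.0 ± 0.16 (adjusted p = 0.00050). Tap1 measured 8.67, 7.86 and 7.99 at 24 h, and after 72 h 7.57, 7.46 and 7.31, a change of -0.73 ± 0.23 (adjusted p = 0.030) with -0.13 in a dimmer probe set. The call of Tap1 was lost without DMSO replicate 1 at 24 h or DMSO replicate 2 or 3 at 72 h (adjusted p up to 0.15). Of the remaining inducible genes 1 of 7 fell, Rtp4, a chaperone of membrane receptors, with a change of -1.72 ± 0.53 (adjusted p = 0.030). Rtp4 measured 10.04, 9.15 and 8.76 at 24 h, and after 72 h 7.64, 7.78 and 7.37, and its call was lost without 5 of the 6 DMSO arrays in turn, all but replicate 3 at 24 h (adjusted p up to 0.12). Of these 7 genes 6 had a negative change, with a median of -0.75 and 4 at an unadjusted p under 0.05 in limma. Ifi27 passed as lower on leaving out DMSO replicate 3, or replicate 1 or 3 of either EMD group, at 24 h. It also passed with an intensity trend, with dim probe sets filtered out and with the replicate number as a block.

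**Figure D2:**
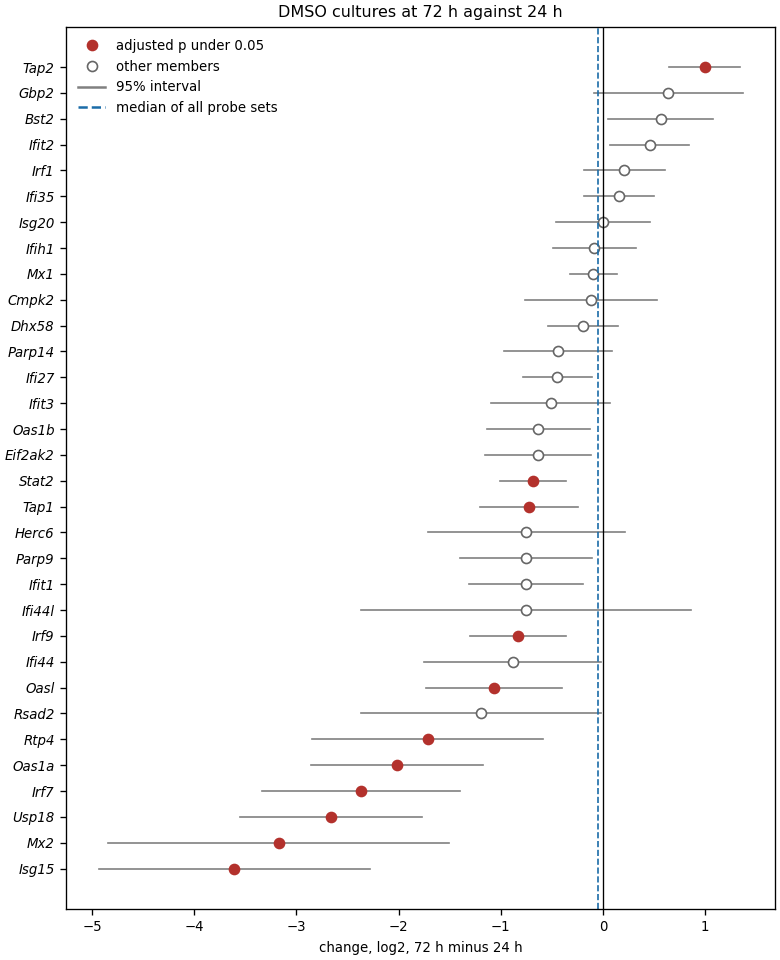
Change of the 32 members in DMSO cultures at 72 h against 24 h on the log2 scale (x axis), sorted, with 95% intervals of the limma fit; filled points have an adjusted p under 0.05 and the dashed line is the median of all probe sets. The largest fall was that of Isg15 at -3.61 and the single rise among filled points that of Tap2 at 1.0.

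Other measures moved over the same time. Of 13 macrophage markers 6 fell in DMSO, and the mean of the list per array ran from 5.55 to 6.23 at 24 h and from 5.28 to 5.54 at 72 h. In bulk samples, fewer cells of a type and less RNA per cell cannot be told apart. The difference between the 3′ and the 5′ probe set of β-actin, a sign of RNA length and quality, was 1.31 ± 0.04 (SD, n = 3) at 24 h and 0.70 ± 0.05 at 72 h in DMSO. That of Gapdh was 0.289 ± 0.013 and 0.168 ± 0.024, and that of hexokinase, 1.40 ± 0.12 and 1.57 ± 0.07, moved the other way. The part of these measures in the fall of the members was not tested. The number of members called was 7 instead of 11 without DMSO replicate 2 at 72 h.

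Few of the members were lower with EMD, and most of the calls came at 72 h. None passed as higher in the fit of the 6 groups without a block for replicate number or array weights. Rsad2 passed as higher with 100 µM at 72 h with either of these. Irf9 passed as higher there with array weights, with group means of 7.44 against 6.97 in DMSO. Eif2ak2 did so with only the groups compared, with 6.92 against 6.55. At 24 h, 1 of 32 members was lower with 30 µM and 1 with 100 µM, against 2.01% and 2.95% of all probe sets, and 0 members were higher against 3.35% and 3.06%. At 72 h, 5 members were lower with 30 µM and 5 with 100 µM, against 9.22% and 9.68% of all probe sets, and 0 were higher against 7.88% and 7.42%. The members' share of calls at 24 h was near that of all probe sets, and 5 of 32 at 72 h was above it by few genes. Left out singly, DMSO replicate 2 or any 30 µM array of that time gave 3 members in place of 5 at 30 µM, and DMSO replicate 2 or EMD replicate 2 or 3 gave 3 in place of 5 at 100 µM. At 30 µM the members had a median change of -0.07 after 24 h and -0.33 after 72 h, and at 100 µM of -0.17 and -0.35, with medians of all probe sets between -0.03 and 0.02. Both doses were compared with the same vehicle arrays at each time, so their values are not independent.

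Isg20, an exonuclease that degrades single-stranded RNA, was the member that passed in all 4 comparisons. It measured 7.31, 7.33 and 7.93 in the DMSO arrays, 6.90, 6.83 and 6.48 with 30 µM and 6.94, 6.82 and 6.27 with 100 µM at 24 h. At 72 h it measured 7.29, 7.5 and 7.78 in DMSO, 6.76, 6.74 and 7.02 with 30 µM and 6.39, 7.11 and 7.05 with 100 µM. No EMD array reached the DMSO arrays of its time. The changes were -0.79 (adjusted p = 0.045) and -0.85 (adjusted p = 0.028) at 24 h and -0.68 (adjusted p = 0.040) and -0.67 (adjusted p = 0.044) at 72 h, each with an SE of 0.22. These calls stood near the threshold. With 30 µM at 24 h the call was lost without any DMSO or 30 µM array of that time, 100 µM replicate 2 at 24 h, or at 72 h DMSO replicate 2, any 30 µM array or 100 µM replicate 3 (adjusted p up to 0.20), and with 100 µM without DMSO replicate 3 or EMD replicate 2 or 3 (up to 0.15). With 30 µM at 72 h it was lost without DMSO replicate 2 or 3 or any EMD array of that group (adjusted p up to 0.15). With 100 µM at 72 h it was lost without DMSO replicate 2 or 3, EMD replicate 1 or 3, 30 µM replicate 1 or 2 of that time, or replicate 2 of either EMD group at 24 h (adjusted p up to 0.18).

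Both transporter subunits were among the members that fell with EMD at 72 h. Tap2 measured 6.23, 5.95 and 5.93 with 30 µM and 5.92, 6.10 and 6.22 with 100 µM, below the 6.58 to 6.93 of DMSO. Its changes were -0.72 ± 0.16 (adjusted p = 0.0049) and -0.68 ± 0.16 (adjusted p = 0.0074), and neither call was lost on leaving out any array. Tap1 measured 6.46, 6.41 and 6.25 with 30 µM and 6.62, 6.93 and 6.80 with 100 µM, below the 7.31 to 7.57 of DMSO. It fell with 30 µM, with a change of -1.07 ± 0.23 (adjusted p = 0.0029), while the change with 100 µM was -0.66 ± 0.23 (adjusted p = 0.057). At 100 µM Tap1 passed on leaving out replicate 1 of any group at 24 h or all 6 arrays of number 1. It also passed with array weights, with dim probe sets filtered out, with only the groups compared and with the replicate number as a block. The dimmer probe set of Tap1 changed by -0.07 with 30 µM. At 24 h Tap2 measured 6.10, 5.45 and 5.49 with 30 µM and 5.45, 5.17 and 5.00 with 100 µM, and the change with 100 µM, -0.56 ± 0.16, had an adjusted p of 0.054. That change passed on leaving out replicate 1 of either EMD group at 24 h, of 100 µM at 72 h, or all 6 arrays of number 1. It also passed with array weights, with dim probe sets filtered out, with the mean of probe sets and with the replicate number as a block.

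Parp14, a mono-ADP-ribosyltransferase, also fell at both doses at 72 h. It measured 8.29, 8.22 and 7.99 in DMSO, 7.33, 6.86 and 7.0 with 30 µM and 7.53, 6.94 and 7.18 with 100 µM. The groups did not overlap, with changes of -1.10 ± 0.25 (adjusted p = 0.0050) and -0.95 ± 0.25 (adjusted p = 0.014), and a second probe set changed by -0.96 and -1.22 and passed at both doses. The call at 100 µM was lost without EMD replicate 2 of that group (adjusted p = 0.070). Its partner Parp9 measured 8.30, 8.09 and 7.87 in DMSO, 7.49, 7.29 and 7.44 with 30 µM and 7.75, 7.37 and 7.38 with 100 µM. The groups of Parp9 were apart as well, but its changes of -0.68 and -0.59 (SE 0.30) did not pass (adjusted p = 0.15 and 0.22). Both passed with only the groups compared, with the replicate number as a block and without all 6 arrays of number 1.

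Ifit2, which binds AU-rich RNA, was lower at 100 µM alone. At 72 h it measured 8.81, 9.24 and 9.22 in DMSO, 8.82, 8.52 and 9.01 with 30 µM and 8.28, 7.86 and 8.17 with 100 µM. The arrays at 100 µM lay under all others of that time, with a change of -0.98 ± 0.18 (adjusted p = 0.0011) that was kept on leaving out any array and was -1.07 in a second probe set, which passed. With 30 µM the change was -0.31 ± 0.18 (adjusted p = 0.31). At 24 h its levels ran from 8.28 to 9.01 over the 9 arrays.

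Each of 2 transcription factors passed at a single dose. Stat2 measured 8.05, 7.92 and 7.99 with 30 µM and 8.21, 8.28 and 8.43 with 100 µM at 72 h. It fell with 30 µM, with a change of -0.48 ± 0.15 (adjusted p = 0.038), and the call was lost without DMSO replicate 2 or 3 or any EMD array of that group (adjusted p up to 0.13), with -0.11 in the dimmer probe set. At 24 h with 30 µM Stat2 passed on leaving out replicate 1 of either EMD group of that time or all 6 arrays of number 1. It also passed there with array weights and with the replicate number as a block. With 100 µM at 72 h Stat2 changed by -0.16 ± 0.15 (adjusted p = 0.55). Irf1 fell with 100 µM, with a change of -0.66 ± 0.19 (adjusted p = 0.021), although its groups overlapped, with 7.63, 7.43 and 6.62 in DMSO and 6.75, 6.45 and 6.49 with EMD. That call was lost without DMSO replicate 1 or 2 or EMD replicate 2 or 3 (adjusted p up to 0.12). With 30 µM, Irf1 and Gbp2 passed as lower on leaving out DMSO replicate 3. Irf7 measured 6.19, 6.28 and 6.48 with 30 µM and 6.19, 5.91 and 6.46 with 100 µM, all below the 7.08 to 7.28 of DMSO, but the changes of -0.84 and -0.96 (SE 0.46) did not pass (adjusted p = 0.26 and 0.18). Both passed with only the groups compared, and at 100 µM Irf7 passed at either time without all 6 arrays of number 1. Its SD within a group was 0.90 at 24 h and 0.19 at 72 h, and the fit shares 1 spread over both times.

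The members with the largest falls over time showed no call with EMD. Isg15 at 72 h measured 6.27, 5.70 and 6.39 with 30 µM and 6.74, 5.94 and 6.75 with 100 µM, which overlapped the DMSO arrays. Usp18 measured 6.17, 5.68 and 6.08 with 30 µM and 6.13, 5.70 and 6.39 with 100 µM, and Oas1a measured 4.41, 4.51 and 4.39 with 30 µM and 4.49, 4.05 and 4.73 with 100 µM. Oas1a changed by -0.56 at either dose (SE 0.40, adjusted p = 0.42 and 0.40). Ifi27, a small mitochondrial protein, measured 12.51, 12.39 and 12.25 in DMSO, 12.14, 12.02 and 11.91 with 30 µM and 12.14, 11.88 and 11.91 with 100 µM at 72 h. Its groups did not overlap, and the changes of -0.36 and -0.41 (SE 0.16) had adjusted p of 0.15 and 0.094. Both passed with the replicate number as a block, and that at 100 µM with array weights too.

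A single member was higher by more than 1 in any EMD comparison. Rsad2 measured 5.10, 5.19 and 5.12 in DMSO, 5.38, 4.83 and 4.69 with 30 µM and 5.91, 7.08 and 6.66 with 100 µM at 72 h. The arrays at 100 µM lay above all others of that time, but the change of 1.41 (95% interval 0.23 to 2.59) did not pass (adjusted p = 0.098). It passed on leaving out 30 µM replicate 1 at 24 h or all 6 arrays of number 1. It also passed with array weights, with only the groups compared and with the replicate number as a block. Rsad2 had a wide spread at 24 h, where its arrays ran from 4.90 to 7.92, and the fit carries this spread into every comparison.

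**Figure D3:**
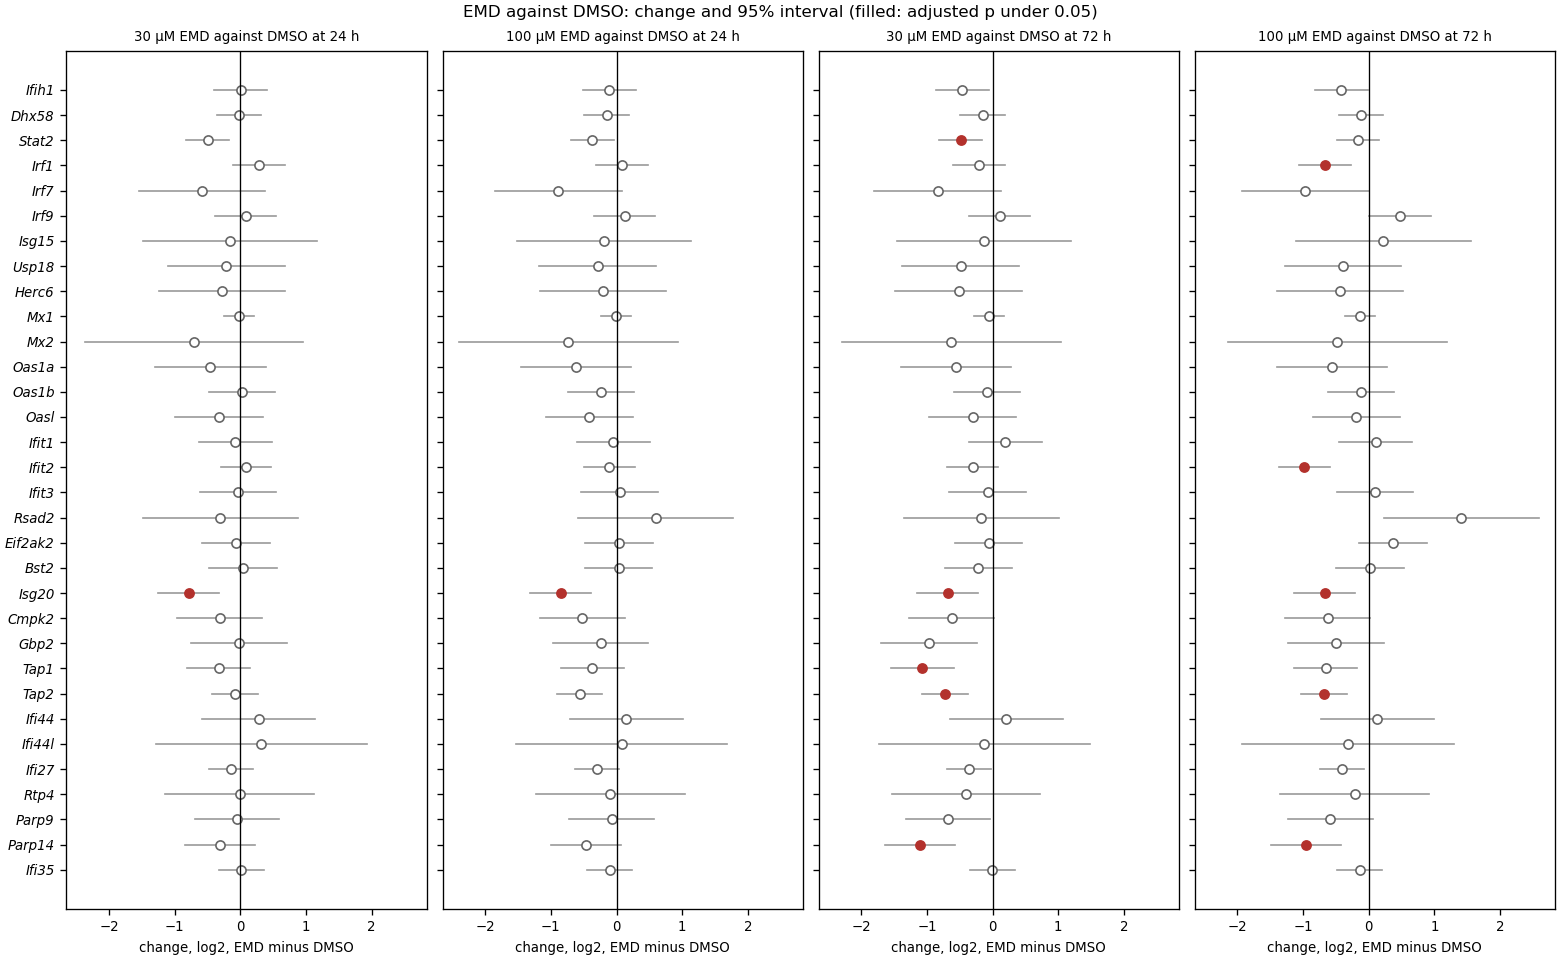
Change of each of the 32 members with EMD against DMSO on the log2 scale (x axis) at 2 doses and 2 times, with 95% intervals of the limma fit; filled points have an adjusted p under 0.05. Isg20 is filled in all 4 panels, and the other filled points, Stat2, Tap1, Tap2 and Parp14 at 30 µM and Irf1, Ifit2, Tap2 and Parp14 at 100 µM, are at 72 h.

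At 72 h markers of other cells and of hepatocytes moved with EMD too, and so did 1 of 3 signs of RNA quality. The mean of the 13 macrophage markers was 5.43 in DMSO, 5.04 with 30 µM and 5.08 with 100 µM, with 2 markers lower at each dose, and that of the 8 hepatocyte markers was 12.5, 12.1 and 12, with 4 lower at each dose. The β-actin difference was 0.70 in DMSO and 0.85 at both doses, while that of Gapdh was 0.168, 0.171 and 0.141 and that of hexokinase 1.57, 1.50 and 1.67 in DMSO and with 30 and 100 µM, with overlapping arrays. The part of these in the members' changes was not tested.

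The doses were not told apart in any member. For 100 against 30 µM, 0 members passed in limma at either time, with 1 and 3 members at an unadjusted p under 0.05. Over all probe sets 0% were higher and 0% lower at 24 h, and 1.25% higher and 1.85% lower at 72 h. Ifit2 came closest at 72 h with -0.68 (95% interval -1.06 to -0.29, adjusted p = 0.055), and Rsad2 differed by 1.58 (95% interval 0.40 to 2.76, adjusted p = 0.15). Ifit2 passed on leaving out DMSO replicate 1 or 3 at 24 h, or replicate 1 of DMSO or of 100 µM at 72 h, and Irf1 on leaving out DMSO replicate 3 at 72 h. Under other settings Ifit2 passed with an intensity trend, with dim probe sets filtered out, with the mean of probe sets and with the number as a block. Both Ifit2 and Rsad2 passed with array weights, and with Tap1 without all 6 arrays of number 1. Whether the response to EMD differed between 72 and 24 h was tested as an interaction. It passed in 0 members at either dose, with 3 members at 30 µM and 2 at 100 µM at an unadjusted p under 0.05, against 0.412% of probe sets higher and 0.528% lower at 30 µM and 0.245% and 0.448% at 100 µM. Without DMSO replicate 3 at 72 h, Irf1 passed at both doses.

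The replicate numbers differed more in these genes than in most. In a fit of group and replicate number, 7 of the 32 members passed for the number, against 7.14% of all probe sets. The mean over all groups was highest in number 1 for 27 of the 32 members, against 38.3% of all probe sets. The difference between numbers lay mostly at 24 h: with the 24 h arrays alone 22 members passed, against 3.76% of all probe sets, and with the 72 h arrays alone 3 members, against 2.29%.

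At 24 h number 1 was the highest of the 3 for 31 of 32 members, against 37.8% of all probe sets, and at 72 h for 9 of 32, against 37.7%. The range between the means of the 3 numbers had a median over members of 0.85 at 24 h and 0.24 at 72 h, while that of all probe sets was 0.15 and 0.16. Several members lay under the array median on some arrays, and the part of this in the narrower range at 72 h was not tested. The SD within a group was larger at 24 h in 29 of the 32 members, with medians of 0.47 and 0.19. For the exception at 24 h, Bst2, number 1 was the lowest, at 10.62 against 11.06 and 10.92 as means of the 3 groups.

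Ifi44l, a relative of the microtubule-associated Ifi44, had the smallest adjusted p (5.0e-06). It measured 6.92, 4.97 and 5.65 in DMSO, 7.64, 5.72 and 5.14 with 30 µM and 7.62, 5.32 and 4.84 with 100 µM at 24 h. At 72 h it measured 6.27, 4.60 and 4.41 in DMSO, 5.83, 4.64 and 4.43 with 30 µM and 5.68, 4.37 and 4.29 with 100 µM. Number 1 was the highest in each of the 6 groups, by more than 1 in each. Its EMD changes ran from -0.31 to 0.32 with an SE of 0.76 in the fit without the number.

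The other 6 that passed were Parp14, Ifi27, Parp9, Gbp2, Rtp4 and Mx2. At 24 h Parp14 (adjusted p = 0.0010) measured 9.02, 8.40 and 8.41 in DMSO, 8.77, 8.09 and 8.02 with 30 µM and 8.74, 7.83 and 7.88 with 100 µM. Parp9 (adjusted p = 0.0060) measured 9.37, 8.57 and 8.57 in DMSO, 9.47, 8.64 and 8.24 with 30 µM and 9.44, 8.65 and 8.20 with 100 µM. Number 1 was the highest in all of these groups. Ifi27 (adjusted p = 0.0035) measured 13.07, 12.87 and 12.56 in DMSO, 12.96, 12.72 and 12.40 with 30 µM and 12.80, 12.53 and 12.26 with 100 µM, in the order of the numbers within each group. For Gbp2 (adjusted p = 0.016), mostly a dim probe set, the DMSO arrays at 72 h were 5.68, 4.47 and 3.86. Rtp4 (adjusted p = 0.041) and Mx2 (adjusted p = 0.044) differed mainly at 24 h, where number 3 was the lowest. Mx2 with EMD measured 9.15, 8.72 and 5.88 at 30 µM and 9.06, 8.56 and 6.04 at 100 µM, and the call for the number was lost on leaving out any of 13 of the 18 arrays, or any of 12 for Rtp4 (adjusted p up to 0.13 and 0.10). Without 100 µM replicate 1 at 72 h, 12 members passed instead of 7.

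**Figure D4:**
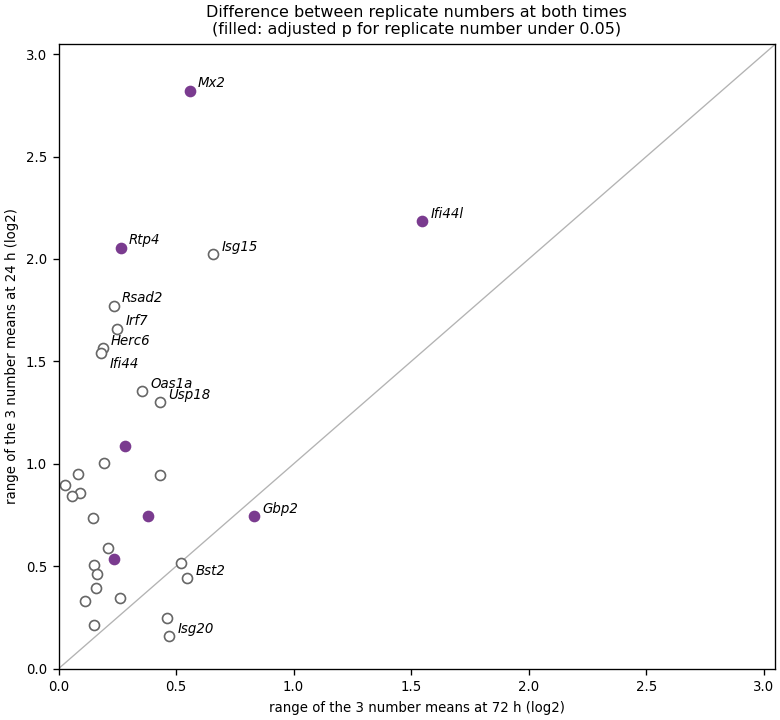
Range between the means of the 3 replicate numbers for each of the 32 members at 72 h (x axis) and at 24 h (y axis), both in log2 units; filled points passed for replicate number in the fit of all arrays and the line marks equal ranges. Of the 32 points 27 lie above the line, with Mx2 and Ifi44l highest, and Isg20 among those below.

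In the differences between EMD and DMSO arrays at 24 h, number 3 stood apart from the other numbers. The DMSO array of the same number was subtracted from each EMD array, as a description, since no source ties the numbers to animals. With 30 µM, number 3 had the lowest of the 3 differences in 26 of 32 members, against 37.4% of all probe sets, and with 100 µM in 25, against 36.1%. The difference of number 3 was below 0 in 30 members at either dose. Both doses used the same DMSO array of a number, so their counts are not independent. A high DMSO array and low EMD arrays of number 3 would give the same sign. Medians over the members for numbers 1 to 3 were 0.10, -0.06 and -0.35 with 30 µM and 0.00, -0.10 and -0.45 with 100 µM.

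Isg15 differed by 0.49 and 0.74 in numbers 1 and 2 but by -1.70 in number 3 with 30 µM, and by 0.38, 0.70 and -1.65 with 100 µM. The arrays behind this were 11.09, 9.72 and 8.29 with 30 µM and 10.99, 9.68 and 8.34 with 100 µM. Usp18 differed by 0.25, 0.02 and -0.91 with 30 µM and by 0.20, -0.02 and -1.04 with 100 µM, from levels of 9.64, 9.10 and 7.98 and of 9.59, 9.07 and 7.85. In both genes numbers 1 and 2 were at or above their DMSO arrays within 0.02 and number 3 was well below.

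Irf7 was below DMSO in all numbers, with -0.06, -0.41 and -1.29 at 30 µM and -0.48, -0.67 and -1.51 at 100 µM. Its levels were 10.09, 8.74 and 7.96 at 30 µM and 9.67, 8.48 and 7.73 at 100 µM. Oas1a followed the same order, with levels of 7.35, 6.51 and 5.80 at 30 µM and 7.32, 6.39 and 5.47 at 100 µM. Stat2, with 9.01, 8.57 and 8.40 at 30 µM and 9.10, 8.75 and 8.52 at 100 µM, and Tap1, with 8.21, 7.67 and 7.65 at 30 µM and 8.38, 7.52 and 7.5 at 100 µM, were below DMSO in each number by 0.19 to 0.60. At 72 h the number 3 difference was the lowest in 8 members with 30 µM and in 3 with 100 µM.

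**Figure D5:**
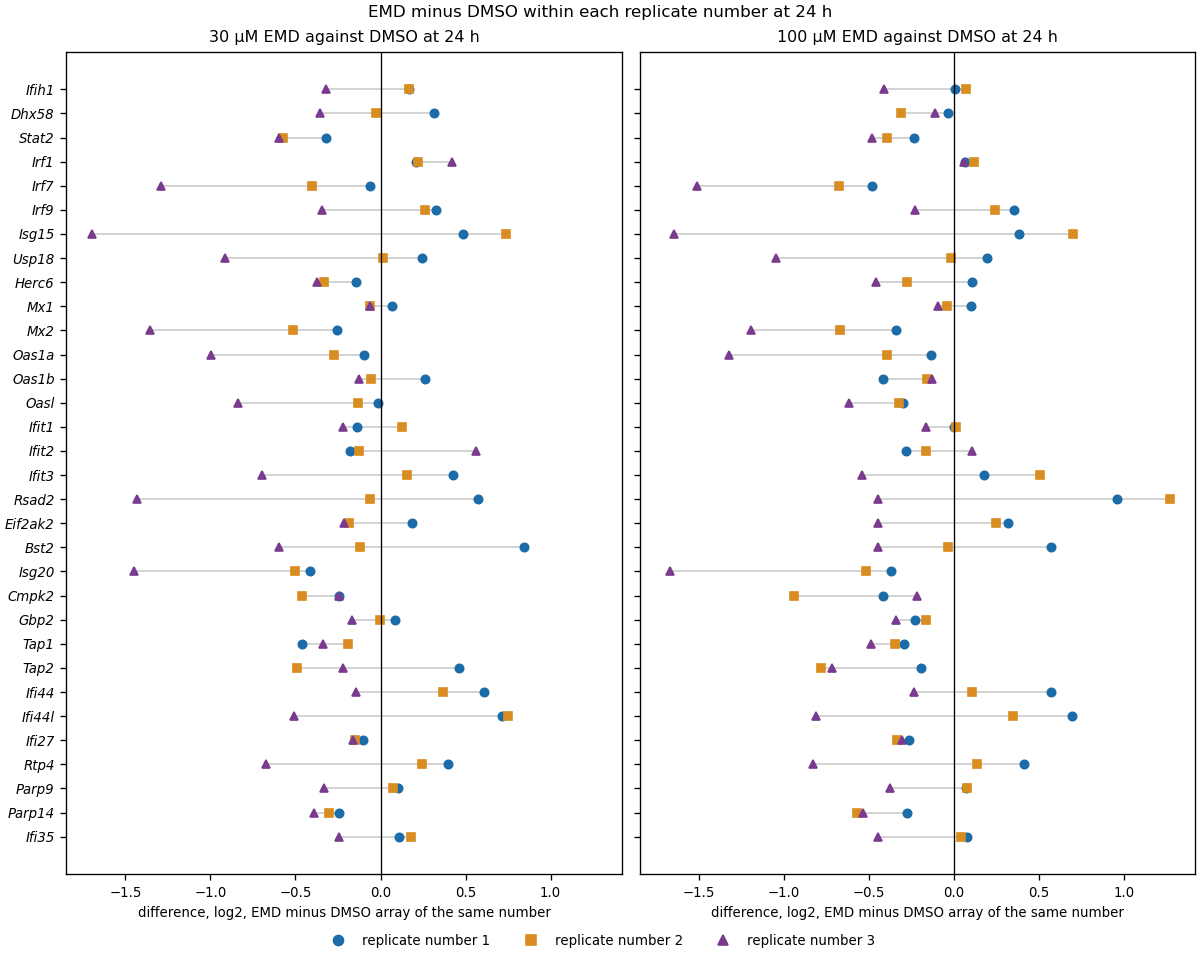
Difference between each EMD array and the DMSO array of the same replicate number at 24 h on the log2 scale (x axis) for the 32 members at 30 µM and at 100 µM; symbols give the number. Triangles, number 3, lie furthest to the left in 26 and 25 of the 32 rows, for Isg15 at -1.70 and -1.65.

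The macrophage markers also moved in number 3 at 24 h. Their mean was 5.82, 5.55 and 6.23 in the DMSO arrays 1 to 3, 5.74, 5.39 and 5.64 with 30 µM and 5.70, 5.40 and 5.59 with 100 µM. Number 3 was thus the highest in DMSO and not with EMD, whereas among the members number 1 was mostly the highest. Over all arrays 2 of 13 macrophage markers and 1 of 8 hepatocyte markers passed for replicate number. The part of other cells in the difference between numbers was not tested.

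Other genes of the interferon pathway, 88 measured of 119 listed, were counted in the same way. At 24 h 3 rose and 2 fell with 30 µM, against 3.35% and 2.01% of all probe sets, and 3 rose and 6 fell with 100 µM, against 3.06% and 2.95%. At 72 h 7 rose and 20 fell with 30 µM, against 7.88% and 9.22%, and 8 rose and 22 fell with 100 µM, against 7.42% and 9.68%. The counts of genes that rose with EMD, and of those that fell with 30 µM at 24 h, were near these shares. In DMSO over time 6 rose and 21 fell, against 11.0% and 10.7%, and 32 passed for replicate number, against 7.14%. The interferon genes themselves, 3 in number, had 0 calls with EMD in limma and 0 at an unadjusted p under 0.05. Of these, Ifng, a dim probe set with means of 2.89 to 2.99 over the replicate numbers, fell in DMSO over time, with a change of -0.31 ± 0.11 (adjusted p = 0.046), and 0 passed for replicate number, with Ifnb1 at an unadjusted p of 0.041 in limma.

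By the smallest adjusted p, 8 of these genes are named. The chemokine Cxcl9 fell in DMSO over time, with a change of -2.51 ± 0.10 (adjusted p = 3.6e-10), and was higher with EMD at 72 h, by 0.60 at 30 µM (adjusted p = 0.00033) and 0.50 at 100 µM (adjusted p = 0.0017). It was the sole gene of the list that passed for the interaction, at 30 µM, by 0.64 ± 0.14 (adjusted p = 0.038). Cxcl11, which binds the same receptor, fell at both doses and times, with changes at 30 µM of -1.02 after 24 h and -1.78 after 72 h and at 100 µM of -0.96 and -1.41 (SE 0.20). Tor3a, an ATPase of the endoplasmic reticulum, was raised in all 4 comparisons, at 30 µM by 1.93 after 24 h and 2.29 after 72 h and at 100 µM by 2.12 and 2.18 (SE 0.20). Ifngr1, a chain of the receptor of type II interferon, rose in all 4 by 0.23 to 0.49. Among transcription factors Irf3 fell with 100 µM at 72 h, with a change of -0.68 ± 0.09, and differed by -0.44 from 30 µM (adjusted p = 0.018). Irf2, a repressor, fell with both doses at 72 h, with changes of -0.46 and -0.79, although its 2 other probe sets changed by 0.02 to 0.36. Tdrd7, a tudor-domain protein of RNA granules, fell with EMD at 72 h, with changes of -0.72 and -0.88, and rose in DMSO over time by 0.49. Plscr1, a membrane scramblase, rose in DMSO over time by 1.35 with an SE of 0.41 (adjusted p = 0.027), and differed by replicate number (adjusted p = 0.00026) in the order opposite to most members, with means of 7.40, 8.09 and 8.44 for numbers 1 to 3.

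The remaining members showed no call in the fit of the 6 groups or for replicate number over all arrays. Ifi44 ran from 5.53 to 7.84 over the 18 arrays, and Ifi35, a leucine zipper protein, from 6.87 to 7.59. Cmpk2 ran from 5.31 to 7.0, Herc6 from 4.47 to 6.85, Eif2ak2 from 6.43 to 7.81 and Bst2 from 10.14 to 11.74. Ifih1 ran from 6.25 to 7.40 and Dhx58 from 5.39 to 6.22. With 30 µM at 72 h, Ifih1 measured 6.25 to 6.61, Herc6 4.47 to 4.65 and Cmpk2 5.59 to 5.74. Their DMSO arrays of that time were higher, at 6.69 to 7.06, 4.96 to 5.21 and 5.98 to 6.51. At 100 µM all arrays of these genes also lay below DMSO. Herc6 and Cmpk2 passed at 30 µM with only the groups compared. Without all 6 arrays of number 1, Herc6 passed at 30 µM and Ifih1 at both doses. The dim Ifit1, Ifit3, Oas1b and Mx1 ran from 3.55 to 4.99, 3.39 to 4.81, 3.08 to 4.56 and 2.90 to 3.45. Herc6 and Ifi44 had ranges between numbers of 1.56 and 1.54 at 24 h, among the widest of the list, and passed for the number with the 24 h arrays alone, as did Ifih1, Oas1b, Ifit1, Eif2ak2 and Cmpk2, while Bst2 passed with the 72 h arrays alone.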

How the data were processed

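Each culture gave 1 array of the Affymetrix rat genome design, 18 in all. The deposited log2 values were computed by the authors with RMA, whose version was not stated in the sources used here. RMA takes off background, equalises the distributions of the arrays and condenses the probes of a set to 1 estimate, which removes any shift shared by most genes and compresses changes of dim probe sets. Sample labels gave the groups and the replicate numbers. Control probe sets (57) were dropped, and of the 31042 tested 20826 carried 1 gene symbol, 436 several and 9780 none.

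In R 4.3.3, limma 3.58.1 (lmFit and eBayes) was run on the deposited values with the 6 groups in 1 fit. Two-sided p-values underwent Benjamini-Hochberg adjustment over all 31042 probe sets, with a threshold of 0.05. The replicate number was tested by limma's moderated F test in a fit of group and number. The fits were tested on simulated data. The labels call the EMD replicates biological and number those of DMSO only, the study's methods call all of them biological, and no source ties an array to an animal, so that p-values measure the spread between these cultures.

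The members and lists were chosen with earlier results of these data known. Values on every array are given for up to 12 members with the smallest adjusted p and for Mx2, Isg20, Rsad2 and Rtp4, added after their values were seen, and 8 other pathway genes are named by the same measure. Alternatives were other normalizations, moderation, array weights, a filter on dim probe sets, the mean of probe sets, subsets of arrays and the replicate number as a block. Leaving out all 6 arrays of a number was chosen after seeing the data. The study's human arrays were not used here.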

Additional observations from a re-analysis of the deposited data

How the results depend on the processing

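Of 667 recomputed values of the 23 called changes of single members, 572 kept direction and call, 95 kept the direction without passing and 0 turned. Counts of members called moved as follows, and the cause was not tested. EMD against DMSO at 24 h, 1 at each dose, gave 0 at 30 µM with array medians made equal, 2 and 2 with array weights, 0 and 0 with only the groups compared, and 2 at 100 µM with probe sets above the median mean or with the mean of all probe sets. At 72 h, 5 at each dose, they gave 9 and 8 with only the groups compared, and 8 at 100 µM with array weights. Only the groups compared added Irf7, Herc6, Cmpk2 and Parp9 at 30 µM. At 100 µM it added Irf7, Rsad2, Eif2ak2, Tap1 and Parp9. Array weights added Gbp2 at 30 µM and Irf9, Rsad2, Tap1 and Ifi27 at 100 µM. Stat2 lost its call at 30 µM with cyclic loess and with the mean of probe sets (4 members each), and at 100 µM Isg20 lost it with array medians made equal (4 members), with array weights and, as did Irf1, with only the groups compared. For 100 against 30 µM at 72 h, 0 members became 1 with an intensity trend, with the dim filter and with the mean of probe sets, Ifit2 each time, and 2 with array weights, Ifit2 and Rsad2. For replicate number, 7 became 12 with array weights, 22 with the 24 h arrays and 3 with the 72 h arrays. It became 5 with an intensity trend, where Mx2 and Rtp4 were lost. With the mean of probe sets it was 6, without Mx2, and with the dim filter 6, without Gbp2.

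With the replicate number as a block (replicate block), counts were 2 and 4 at 24 h and 8 and 9 at 72 h for EMD, 1 for dose at 72 h, 1 for the interaction at 30 µM and 21 instead of 11 for DMSO over time, 3 higher and 18 lower. The block lost no call in these, and added Oas1b, Ifit1, Eif2ak2, Bst2, Gbp2, Ifi44, Ifi44l, Ifi27, Parp9 and Parp14 over time, Stat2 at 30 µM and Tap2, Ifi27 and Parp14 at 100 µM at 24 h, and at 72 h Gbp2, Ifi27 and Parp9 at 30 µM and Rsad2 (higher), Tap1, Ifi27 and Parp9 at 100 µM. The methods say that hepatocytes of each animal received the treatments, but no source ties a number to an animal. Deviations of arrays of the same number and time correlated over 0.1 in 16 of 18 pairs (median 0.37). Each of the 18 arrays correlated best with its own number, a hint from the data on a link that no source states.

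Leaving out 1 array, or all 6 of a number, gave 0 to 2 at 30 µM and 0 to 5 at 100 µM at 24 h, 0 to 8 and 0 to 8 at 72 h, 0 to 3 for dose at 72 h, 4 to 15 for DMSO over time, 0 to 2 and 0 to 1 for the interactions, and 5 to 12 for replicate number. Without all arrays of number 2, EMD calls at 72 h were 0 at both doses. The number of arrays limits precision, and members under the array median have compressed changes.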
